A study of Mus musculus with 7 samples.

Results

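The 5 genes described here, Nrp1, Myzap, Dgkeos, Ndrg1 and Spats2, were picked from 32286 measured features because their summed level was higher in the DN3b gd- than in the DN3b gd+ library of mouse thymocytes. That difference therefore describes the choice, and every value below that rests on it is given without support. The study profiled sorted CD4- CD8- (double-negative, DN) thymocytes by droplet-based single-cell RNA sequencing of transcript 3′ ends, in 7 libraries with 1 library per group. It addressed how signals of the pre-TCR and of the gamma delta TCR separate developing alpha beta and gamma delta T cells.

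DN3 thymocytes rearrange their T-cell receptor genes. Cells that make a working beta chain pair it with the pre-T alpha chain (Ptcra) into the pre-TCR, whose signal triggers proliferation and passage towards the alpha beta lineage, while cells that assemble a gamma delta TCR can enter the gamma delta lineage. The 5 genes have little in common in their known functions. Nrp1 encodes neuropilin 1, a surface co-receptor for class 3 semaphorins and vascular endothelial growth factors. Myzap encodes myocardial zonula adherens protein, a component of the cell junctions of the heart. Dgkeos is an antisense transcript named for its position opposite Dgke, the gene of diacylglycerol kinase epsilon, an enzyme that phosphorylates the second messenger diacylglycerol. Ndrg1 encodes a cytoplasmic protein of the N-myc downstream regulated family that hypoxia induces and that the kinases SGK1 and GSK3 phosphorylate. Spats2 encodes spermatogenesis-associated serine-rich protein 2.

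The 5 wild-type libraries came from pooled thymi of 6- to 8-week-old C57BL/6 mice from which CD4+ and CD8+ cells had been depleted. DN3a was the CD25+ population before selection and DN3b gd- its CD71+ counterpart after it, both without a gamma delta TCR. DN4 gd- was CD71+ and had lost CD25, and DN3b gd+ and DN4 gd+ carried a gamma delta TCR at the cell surface together with CD24. The DN3 gd- and DN3 gdint libraries came from Lat-/-TCRd-H2BEGFP mice on the C57BL/6 background, which lack the adaptor LAT that both receptors use to signal and carry a GFP reporter of the Tcrd gene, and are written below as Lat-KO. The gdint cells had an intermediate level of the gamma delta TCR at the surface. All 7 libraries had received 500 splenic B cells each. The mice were pooled before sorting, so the libraries hold no information on the spread between animals, and no test between groups was possible.

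Of 90016 barcodes, 71081 were thymocyte barcodes, with at most 1 UMI (counted molecule) in total of the B-cell genes Cd79a, Cd79b and Ms4a1. They numbered 5274 to 18515 per library. The median was 5737.5 to 18506 UMIs per barcode, and 49407750 to 375688164 UMIs were counted per library. Between 8 and 77 barcodes were shared by any pair of libraries (0.124% to 0.695% of the smaller one). Lat was at 357 to 648 CPM (UMIs of a gene per 1e6 UMIs of the library's thymocyte barcodes) in the wild-type libraries and at 4.83 and 0.899 CPM in Lat-KO DN3 gd- and Lat-KO DN3 gdint, as their labels say. The 10 T-cell markers summed to 4048 to 11772 CPM. Cd79b stayed at 40.9 CPM in DN3a, 49.3 CPM in Lat-KO DN3 gd- and 48.5 CPM in Lat-KO DN3 gdint. It was at 8.65 to 22.1 CPM in the others, so the limit on B-cell genes can drop thymocytes unevenly. In Lat-KO DN3 gd- 8071 barcodes passed quality, 6468 were kept and 187 were B barcodes. The numbers were 7876, 6818 and 122 in DN3a and 13617, 12942 and 118 in DN4 gd-. The part of this loss in the values was not tested. Lat-KO DN3 gdint stood apart, since ribosomal-protein genes took 18.1% of its thymocyte UMIs and 19.7% of the UMIs of its B cells, against 27.5% to 33.6% and 29.7% to 36.0% in the other libraries. The part of that difference in the values of this library was not tested. Because other cells can express Nrp1, marker lists of other types were checked. Of 6 endothelial markers, Cdh5, Kdr, Emcn and Tek reached at most 0.264 CPM in any library, while Pecam1 and Egfl7 reached 74.8 and 33.5 CPM, and the list summed to 47.6 to 82.9 CPM per library. Of 5 plasmacytoid dendritic cell markers, Siglech reached at most 0.0793 CPM, while Ly6d, Bst2, Tcf4 and Irf8 reached 2377, 548, 107 and 14.7 CPM, and the list summed to 197 to 3027 CPM. Pecam1, Ly6d, Bst2 and Tcf4 are also known in lymphocytes or their precursors. Of 6 stromal markers, which summed to 5.36 to 20.8 CPM, Dcn was at 7.43 CPM in DN4 gd- and at most 0.0372 CPM elsewhere, Col3a1 at 2.005 CPM and at most 0.0186 CPM and Col1a2 at 1.17 CPM and at most 0.0143 CPM, whereas Pdgfrb, the most abundant of the list, was lowest in DN4 gd- at 2.48 CPM and reached 20.6 CPM in Lat-KO DN3 gd-. Of 6 thymic epithelial markers, which summed to 36.7 to 201 CPM Krt5 was at 2.35 CPM in DN4 gd- and at most 0.577 CPM elsewhere, whereas the more abundant Epcam and Ccl25 were lowest in DN4 gd-, at 22.04 and 10.1 CPM, and reached 175 and 25.1 CPM in Lat-KO DN3 gdint. The part of such cells in the DN4 gd- values was not tested. Of 7 myeloid markers, which summed to 100 to 199 CPM, Csf1r and Itgam reached at most 0.243 CPM and Tyrobp 4.31 CPM, while Cst3 reached 143 CPM and Lyz2 44.4 CPM in Lat-KO DN3 gd-, and Ctss 40.2 CPM and Fcer1g 27.2 CPM in DN4 gd+. Of 5 NK markers, which summed to 7.46 to 345 CPM, Ncr1 was at 0 UMIs in every library and Klrb1c at no more than 0.329 CPM, while Nkg7 reached 322 CPM, Klrd1 13.4 CPM and Eomes 9.49 CPM in DN4 gd+. The part of these cells in the values was not tested either.

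All 5 genes lie on autosomes (GRCm38, GENCODE vM21). Nrp1 (ENSMUSG00000025810) spans chr8:128358604-128503363 on the plus strand, and the nearest other gene start is that of the integrin gene Itgb1, 327050 bases away. Myzap (ENSMUSG00000041361) spans chr9:71504347-71592360 on the minus strand. Its neighbour Polr2m, a subunit gene of RNA polymerase II with which Myzap has no annotated exon base in common, starts 106425 bases away. Ndrg1 (ENSMUSG00000005125) spans chr15:66929318-66969640 on the minus strand and Spats2 (ENSMUSG00000051934) chr15:99125916-99213215 on the plus strand. Dgkeos (ENSMUSG00000063109) spans chr11:89064729-89069098 on the plus strand and overlaps Dgke by 2122 bases, 100 of which are exonic in both genes. Whether reads were counted by strand is not given in the sources used here, so the counts of both genes are uncertain where they overlap, although their 3′ ends lie 33919 bases apart.

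The RefSeq promoter table (GRCm38.p6) held an entry for 4 of the 5 genes. The 250 bases before the start are shown for Nrp1 (chr8:128358823-128359072, plus strand) and Myzap (chr9:71592361-71592610, minus strand), the pair that fell to the lowest levels in DN3b gd+ and DN4 gd+, with CpG dinucleotides in capitals. The RefSeq start of Nrp1, at base 128359073, lies inside the GENCODE span.

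Nrp1: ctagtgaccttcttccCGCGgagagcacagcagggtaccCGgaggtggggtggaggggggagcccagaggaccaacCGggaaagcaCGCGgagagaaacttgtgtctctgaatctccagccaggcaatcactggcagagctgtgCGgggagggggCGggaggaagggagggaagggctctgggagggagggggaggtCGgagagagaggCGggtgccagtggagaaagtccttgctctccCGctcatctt

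Myzap: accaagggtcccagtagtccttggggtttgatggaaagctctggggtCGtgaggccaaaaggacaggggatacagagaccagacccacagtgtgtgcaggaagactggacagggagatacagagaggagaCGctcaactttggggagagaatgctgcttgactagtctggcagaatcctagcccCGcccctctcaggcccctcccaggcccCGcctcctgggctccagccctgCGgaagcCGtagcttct

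GC content was 64.4% for Nrp1, 60% for Myzap, 72% for Dgkeos and 78.4% for Spats2, against a median of 52.4% over 32851 promoters. The CpG number was 11, 6, 31 and 39 in that order, against a median of 6. The windows of Dgkeos and Spats2 lie inside annotated exons and are not shown. The sites of 4 kinds of factor active in thymocytes were searched on both strands. Dgkeos had a CANNTG (E-box) 9 bases before its RefSeq start, at base 89060751 and thus upstream of the GENCODE start given above, where the window lies in a Dgke exon. It is a motif held by 66.2% of all promoters of this length. TGGGAA (RBPJ, 21.6% of promoters), TGTGGT (Runx, 14.0%) and GTGGGCG (Egr, 7.02%) were in none of the 4 windows, which says only that these letters are absent there.

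The levels fell into 2 arrangements. Nrp1, Myzap, Dgkeos and Ndrg1 were present in DN3a cells and stayed within a few fold of that level in DN3b gd- and DN4 gd-. They were lowest in DN3b gd+ and DN4 gd+, the 2 wild-type libraries with a gamma delta TCR. Lat-KO DN3 gdint cells carried that receptor at an intermediate level. There the same genes stood at 44.6, 72.3, 192 and 67.5 CPM in that order, so they were not low in every library with the receptor. Spats2 had the same order of wild-type libraries at the bottom but a much narrower span. Intervals in brackets are exact 95% Poisson intervals. They cover counting error only, so intervals that do not overlap do not show that the groups differ. They are narrow because many UMIs were counted.

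Nrp1 stood at 20.04 CPM [18.9, 21.3] in DN3a, 31.3 CPM [30.7, 31.9] in DN3b gd-, 32.5 CPM [31.8, 33.2] in DN4 gd-, 2.77 CPM [2.54, 3.01] in DN3b gd+, 0.859 CPM [0.656, 1.11] in DN4 gd+, 38.6 CPM [36.9, 40.4] in Lat-KO DN3 gd- and 44.6 CPM [42.5, 46.8] in Lat-KO DN3 gdint. Nrp1 and Spats2 were the members whose wild-type levels were higher in DN3b gd- and DN4 gd- than in DN3a. DN4 gd- and DN3b gd- were the only neighbours in the order of its levels whose intervals overlapped, and the highest level was 51.9 times the lowest, which does not exceed the background described below.

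Myzap stood at 26.1 CPM [24.8, 27.5] in DN3a, 22.4 CPM [21.9, 22.9] in DN3b gd-, 19.0 CPM [18.4, 19.5] in DN4 gd-, 2.17 CPM [1.97, 2.39] in DN3b gd+, 1.03 CPM [0.807, 1.30] in DN4 gd+, 50.5 CPM [48.5, 52.5] in Lat-KO DN3 gd- and 72.3 CPM [69.7, 75.1] in Lat-KO DN3 gdint. The highest level was 70.2 times the lowest, which again does not exceed the background, so neither ratio is read as an exact fold. Polr2m next to it stood at 105 to 117 CPM in the wild-type libraries and at 135 and 225 CPM in the Lat-KO libraries, so it did not share the wild-type pattern.

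Dgkeos stood at 309 CPM [304, 313] in DN3a, where it ranked number 357 of all features. It stood at 127 CPM [126, 128] in DN3b gd-, 172 CPM [170, 173] in DN4 gd-, 17.4 CPM [16.8, 18.0] in DN3b gd+, 9.24 CPM [8.54, 9.98] in DN4 gd+, 255 CPM [251, 259] in Lat-KO DN3 gd- and 192 CPM [188, 196] in Lat-KO DN3 gdint. It was the only member whose highest level was in wild-type DN3a, and no neighbouring intervals overlapped. The span was 33.4 times, over a lowest level whose interval overlapped the background, so it is not read as an exact fold.

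Ndrg1 stood at 41.7 CPM [40.02, 43.5] in DN3a, 24.4 CPM [23.9, 24.9] in DN3b gd-, 13.4 CPM [12.9, 13.8] in DN4 gd-, 3.67 CPM [3.40, 3.94] in DN3b gd+, 2.22 CPM [1.88, 2.60] in DN4 gd+, 81.9 CPM [79.5, 84.5] in Lat-KO DN3 gd- and 67.5 CPM [64.9, 70.1] in Lat-KO DN3 gdint. Its level was lower in DN3b gd- than in DN3a and lower again in DN4 gd-, but in cycling barcodes alone it was at 24.9 CPM in DN3a and 23.7 CPM in DN3b gd-, and in non-cycling barcodes at 43.7 and 38.0 CPM. The 2 Gm genes that overlap Ndrg1, Gm17035 and Gm2895, stood at or below 0.223 CPM in the wild-type libraries.

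Spats2 stood at 44.9 CPM [43.1, 46.7] in DN3a, 54.7 CPM [53.9, 55.5] in DN3b gd-, 53.0 CPM [52.0, 53.9] in DN4 gd-, 18.2 CPM [17.6, 18.8] in DN3b gd+, 15.1 CPM [14.2, 16.0] in DN4 gd+, 24.4 CPM [23.0, 25.8] in Lat-KO DN3 gd- and 32.7 CPM [30.9, 34.6] in Lat-KO DN3 gdint. Its highest level was 3.63 times its lowest, and it was the only member that was lower in both Lat-KO libraries than in each of DN3a, DN3b gd- and DN4 gd-.

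**Figure D1:**
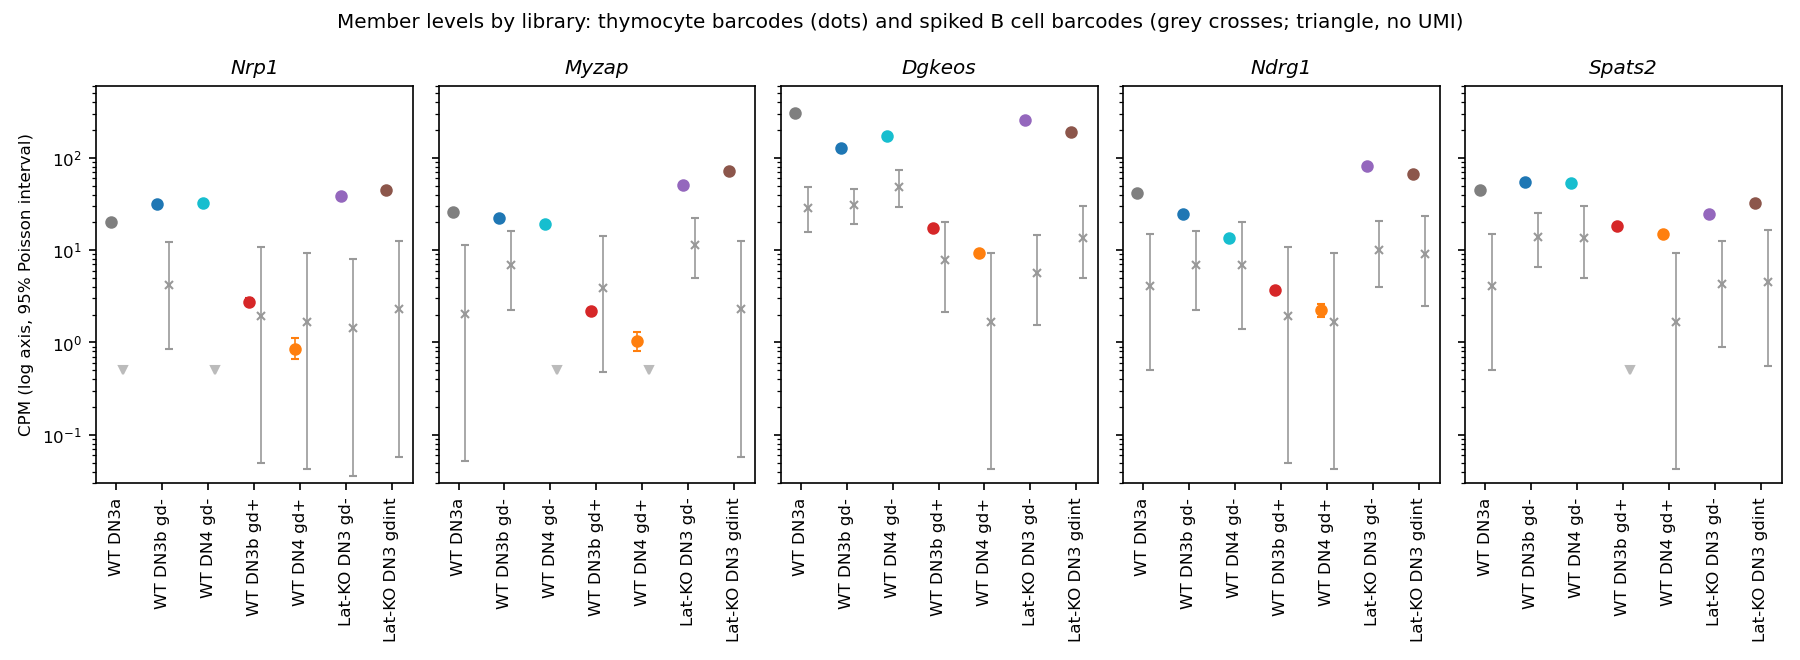
Level of each of the 5 genes in the 7 libraries in CPM on a log axis, with exact 95% Poisson intervals over counts. Nrp1, Myzap, Dgkeos and Ndrg1 were lowest in DN3b gd+ and DN4 gd+ by more than an order of magnitude below their highest library, at levels that overlap the B background, while Spats2 spanned 3.63 times.

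The spiked B cells give a background, made of RNA free in the droplets and of any transcript of their own. In B barcodes Nrp1 was at 0 to 4.16 CPM, Myzap at 0 to 11.4 CPM, Dgkeos at 1.66 to 47.8 CPM, Ndrg1 at 1.66 to 9.99 CPM and Spats2 at 0 to 13.9 CPM, on 0 to 22 UMIs per library. In the DN3b gd+ and DN4 gd+ libraries the thymocyte levels of Nrp1, Myzap and Ndrg1 lay inside the intervals of the B level (for DN3b gd+ reaching 10.9, 14.1 and 10.9 CPM in that order), so these levels are not read as expression. The thymocyte intervals of Dgkeos, too, overlapped the B intervals, which reached 20.01 CPM in DN3b gd+ and 9.26 CPM in DN4 gd+. Spats2 was above the B interval in both libraries, whose upper bounds were 7.21 and 9.26 CPM. In the 5 other libraries all 5 members exceeded the B intervals, except that the DN4 gd- level of Ndrg1 lay inside an interval reaching 19.96 CPM.

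Between DN3a and DN3b gd-, the step at which the pre-TCR acts, 0 members were higher and 1 was lower by 2-fold or more. Among 5968 features with at least 20 CPM in either library, which include all 5 members, 11.4% were higher and 14.6% lower by that measure. The member was Dgkeos, with a log2 ratio of -1.28 [-1.31, -1.26]. Nrp1 changed by 0.64 [0.55, 0.74] and Spats2 by 0.29 [0.22, 0.35], both higher in DN3b gd-. Myzap changed by -0.22 [-0.30, -0.14] and Ndrg1 by -0.77 [-0.84, -0.71]. Brackets of log2 ratios are exact conditional binomial 95% intervals. The members' median was -0.22, beside 0.01 over the 5968 features. TMM scaling raised every log2 ratio of this comparison by 0.36, which turned Myzap to 0.14, took Dgkeos to -0.92 and brought Nrp1 to 1.01. The cycling share differed between the libraries (6.16% in DN3a and 88.4% in DN3b gd-), so the ratios were also taken within each state. Dgkeos was at -0.81 in cycling and -0.91 in non-cycling barcodes, inside 2-fold in both. Ndrg1 was at -0.07 [-0.32, 0.19] in cycling and -0.20 [-0.38, -0.02] in non-cycling barcodes, so most of its difference between the whole libraries was not seen within a state. Myzap was at 0.35 and -0.16 in that order, Nrp1 at 0.80 and 0.72, and Spats2 at 0.14 [-0.04, 0.31] and 0.34. The choice of the members used this DN3b gd- library, so nothing is read from a member being higher in it.

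Between DN3a and DN3b gd+, which shares the DN3a library with the comparison above, all 5 members were lower by 2-fold or more and 0 were higher. Of 5975 features 13.4% were lower and 11.5% higher. The log2 ratio was -2.86 [-3.01, -2.71] for Nrp1, -3.59 [-3.75, -3.43] for Myzap, -4.15 [-4.20, -4.10] for Dgkeos, -3.51 [-3.63, -3.39] for Ndrg1 and -1.31 [-1.38, -1.23] for Spats2. The median of the members was -3.51, beside 0.02 over the 5975 features. Under TMM scaling the value of Spats2 was -0.98, inside 2-fold. Within cycling barcodes the ratios were -2.73, -3.04, -3.78, -2.80 and -1.46 in the same order, and within non-cycling barcodes -2.51, -3.35, -3.03, -3.02 and -1.12. The choice of the members used this DN3b gd+ library, so the low levels in it are part of how they were chosen. Those of Nrp1, Myzap and Ndrg1 lay inside the B intervals and that of Dgkeos overlapped its own, so the ratios of these 4 are not exact folds.

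The comparison that chose the members gave log2 ratios of DN3b gd- over DN3b gd+ of 3.50 for Nrp1, 3.37 for Myzap, 2.87 for Dgkeos, 2.74 for Ndrg1 and 1.59 for Spats2. All 5 were at least 2-fold higher and 0 lower, where 1.79% of 5415 features were higher and 5.13% lower, and nothing is read from that count.

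**Figure D2:**
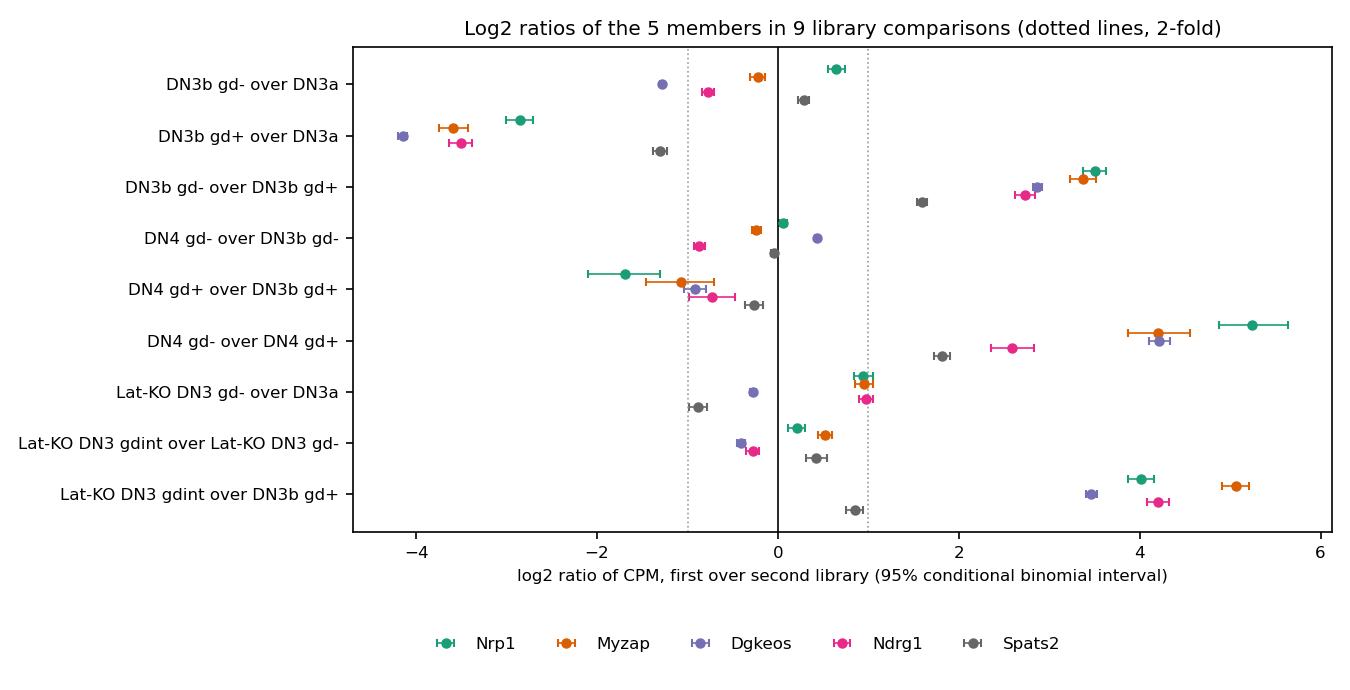
Log2 ratio of CPM of the 5 genes in the comparisons between libraries, with exact conditional binomial 95% intervals and lines at 2-fold. All 5 lie below -1 in DN3b gd+ over DN3a, while in DN3b gd- over DN3a only Dgkeos does, at -1.28.

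The DN4 libraries are not in the rule that chose the members, although the study drew its own pre-TCR list, which names Spats2 and Dgkeos, with DN4 gd- as well. From DN3b gd- to DN4 gd-, 0 members passed 2-fold in either direction, where 1.18% of 5148 features did. The largest shifts were those of Ndrg1 at -0.87 and Dgkeos at 0.43, with Nrp1 at 0.05, Spats2 at -0.05 and Myzap at -0.24. Ndrg1 passed 2-fold (-1.21) in non-cycling barcodes alone. Its DN4 gd- level lay inside the B interval, so its ratios are not read as exact folds.

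From DN3b gd+ to DN4 gd+, 2 members were lower by 2-fold or more, where 7.33% of 5827 features were lower by that measure. None of the 5 reached 20 CPM in either library, so the members themselves were not among the 5827. The log2 ratio was -1.69 [-2.10, -1.30] for Nrp1, -1.07 [-1.45, -0.71] for Myzap, -0.91 [-1.04, -0.79] for Dgkeos, -0.72 [-0.98, -0.47] for Ndrg1 and -0.27 [-0.37, -0.17] for Spats2. The levels of the 4 members other than Spats2 overlapped the B background in both libraries, so nothing is read from the count. It was 4 with TMM scaling (15.6% of features lower), after thinning each barcode to 4000 UMIs (11.8% in the expected counts) and in non-cycling barcodes alone (11.5%), 3 without the deepest 5% of barcodes (11.1%) and 0 in cycling barcodes (1.28%). The cycling share was 80.8% in DN3b gd+ and 18.4% in DN4 gd+. Within cycling barcodes the ratios were -0.88 for Nrp1, -0.65 for Myzap, 0.11 [-0.03, 0.26] for Dgkeos, -0.52 for Ndrg1 and -0.27 for Spats2, and within non-cycling barcodes -2.65, -1.54, -3.13, -1.52 and -0.38 in the same order.

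Between the DN4 libraries, DN4 gd- over DN4 gd+, all 5 members were at least 2-fold higher, where 8.96% of 5845 features were. The log2 ratio was 5.24 [4.88, 5.63] for Nrp1, 4.20 [3.87, 4.56] for Myzap, 4.22 [4.10, 4.33] for Dgkeos, 2.59 [2.36, 2.83] for Ndrg1 and 1.81 [1.72, 1.90] for Spats2. Nrp1, Dgkeos and Spats2 were among the 5845, each only through its level in DN4 gd-, while Myzap and Ndrg1 were below 20 CPM in both libraries. The members were picked for the same direction between the DN3b libraries, from which these stages follow, so nothing is read from the count. The cycling share of the 2 libraries differed (83.6% and 18.4%). Within cycling barcodes the ratios were 4.48, 3.81, 3.30, 2.41 and 1.82 in the same order, and within non-cycling barcodes 5.68, 4.41, 5.48, 3.13 and 1.65, all of the same sign. Spats2 was the only member above the B interval in both libraries. Ndrg1 lay inside it in both, Nrp1 and Myzap lay inside it in DN4 gd+ and Dgkeos overlapped it there, so the ratios of these 4 are not read as exact folds and that of Ndrg1 is not read as a difference.

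The libraries from Lat-KO mice show the members where neither receptor signals through LAT. In Lat-KO DN3 gd- over wild-type DN3a, 0 members passed 2-fold, where 2.84% of 6100 features did in either direction. Nrp1 was at 0.95 [0.84, 1.05], Myzap at 0.95 [0.86, 1.05] and Ndrg1 at 0.97 [0.90, 1.05], all just inside 2-fold. Dgkeos was at -0.28 [-0.31, -0.24] and Spats2 at -0.88 [-0.98, -0.78]. The median over the 6100 features was 0.22, so part of the higher values was shared by all features. TMM scaling shifted every log2 ratio of this comparison by -0.17, which took Spats2 to -1.05. In the 574 and 420 cycling barcodes alone 4 members passed, where 4.9% of features did, with Nrp1 at 1.24, Myzap at 1.31, Ndrg1 at 1.64 and Spats2 at -1.38. Genotype and library cannot be told apart here, since each genotype had its own libraries and mice, and the age of the Lat-KO mice is not in the labels.

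Lat-KO DN3 gdint over Lat-KO DN3 gd- had 0 members past 2-fold, where 8.59% of 6534 features passed in either direction. Myzap was at 0.52, Spats2 at 0.43, Nrp1 at 0.21, Ndrg1 at -0.28 and Dgkeos at -0.41. Under TMM scaling Nrp1 was at -0.04. Against wild-type DN3b gd+, the library that chose the members, Lat-KO DN3 gdint was at least 2-fold higher for 4 members, where 24.8% of 6600 features were higher. Nrp1 was at 4.01, Myzap at 5.06, Dgkeos at 3.47, Ndrg1 at 4.20 and Spats2, inside 2-fold, at 0.85. The median over the 6600 features was 0.51, and TMM scaling lowered every ratio by 0.74, which took Spats2 to 0.11. The first 4 ratios are again over levels that overlap the B background.

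Shares of barcodes were compared after thinning every barcode to 4000 UMIs and leaving out the shallower ones, which kept 4537 to 17673 thymocyte barcodes per library. A Dgkeos UMI was found in 67.1% of DN3a, 38.1% of DN3b gd-, 47.5% of DN4 gd-, 5.84% of DN3b gd+, 2.09% of DN4 gd+, 60.1% of Lat-KO DN3 gd- and 52.0% of Lat-KO DN3 gdint barcodes. Without thinning its shares were 81.8%, 76.8%, 82.4%, 14.1%, 3.95%, 76.7% and 64.8% in the same order. In B barcodes at the same depth, 0 to 2 of 24 to 58 per library held a Dgkeos UMI.

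Nrp1 was found in 7.29% of DN3a, 11.2% of DN3b gd-, 11.6% of DN4 gd-, 1.04% of DN3b gd+ and 0.173% of DN4 gd+ barcodes. In the Lat-KO libraries its share was 12.9% and 15.3%. Myzap was found in 10.4%, 8.46%, 7.19%, 0.986% and 0.274% of the wild-type libraries in that order, and in 18.1% and 26.3% of the Lat-KO libraries. Ndrg1 was found in 15.2%, 9.50%, 5.06%, 1.64% and 0.750%, and in 25.1% and 22.9%. Spats2 was found in 15.4%, 19.0%, 18.7%, 6.71% and 5.52%, and in 8.82% and 11.8%. In DN3b gd+ and DN4 gd+ the shares of all 5 genes lay within the intervals of the 52 and 58 B barcodes, which are wide, and of the 5 only Spats2 also exceeded the B level in CPM.

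Barcodes with several copies were counted at the same depth. Dgkeos reached 2 or more UMIs in 35.9% of DN3a, 11.3% of DN3b gd-, 16.8% of DN4 gd-, 1.33% of DN3b gd+ and 0.332% of DN4 gd+ barcodes. In DN3b gd+, where Dgkeos and Spats2 had like shares of barcodes with a UMI (5.84% and 6.71%), Spats2 reached 2 or more UMIs in 0.304% only. The Dgkeos UMIs of DN3b gd+ were thus gathered in fewer barcodes.

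At least 1 of the 5 genes was found in 79.5% of DN3a, 62.3% of DN3b gd-, 66.0% of DN4 gd-, 14.4% of DN3b gd+ and 8.48% of DN4 gd+ barcodes. In Lat-KO DN3 gd- and Lat-KO DN3 gdint the share was 80.1% and 78.2%. In B barcodes it was 3.45% to 16.7% per library, with 5.77% [1.21, 15.9] in DN3b gd+ and 3.45% [0.42, 11.9] in DN4 gd+, intervals that hold the thymocyte shares of both libraries. At least 2 of the 5 were found in 29.6%, 19.9%, 20.8%, 1.60% and 0.332% of the wild-type libraries, and in 35.9% and 37.7% of the Lat-KO libraries. At least 3 were found in 5.74%, 3.62%, 2.95%, 0.184% and 0 of 6934 barcodes, and in 8.20% and 10.9% of the Lat-KO libraries. The Clopper-Pearson upper bound for the count of 0 was 0.0532%.

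**Figure D3:**
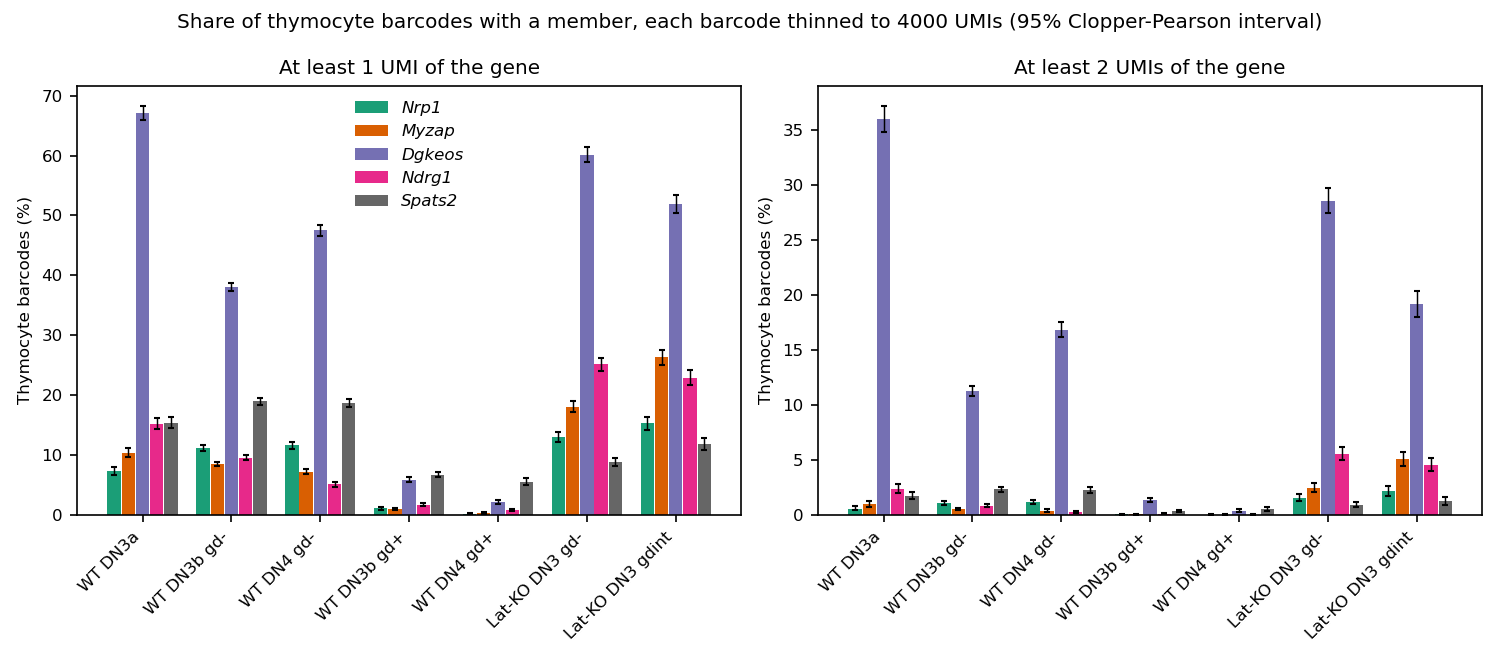
Share of thymocyte barcodes, thinned to 4000 UMIs each, with at least 1 UMI of each gene in the 7 libraries, with Clopper-Pearson 95% intervals. Dgkeos reached 67.1% in DN3a and fell to 2.09% in DN4 gd+, while the highest share of another member was 26.3%, of Myzap in Lat-KO DN3 gdint.

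Cycling barcodes, with at least 2 UMIs of Mki67 and Top2a together, made up 6.16% of DN3a, 88.4% of DN3b gd-, 83.6% of DN4 gd-, 80.8% of DN3b gd+, 18.4% of DN4 gd+, 8.87% of Lat-KO DN3 gd- and 23.3% of Lat-KO DN3 gdint. Cycling barcodes were deeper, with median UMIs of 12113 to 19996 against 4438.5 to 7658 in barcodes without a UMI of either gene. In DN3a, 0 members passed 2-fold between the states, where 5.43% of features with at least 20 CPM in either state did. Nrp1 was below that level. Dgkeos was at 219 CPM in cycling and 323 CPM in non-cycling barcodes, a log2 ratio of -0.56 [-0.65, -0.48]. Ndrg1 was at 24.9 and 43.7 CPM (-0.81), Myzap at 17.6 and 26.9 CPM (-0.62), Nrp1 at 17.9 and 19.6 CPM and Spats2 at 49.9 and 43.7 CPM.

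DN3b gd- had 0 members past 2-fold (4.05% of features), with Dgkeos at 125 and 172 CPM and Ndrg1 at 23.7 and 38.0 CPM. DN4 gd- had 0 (5.56% of features, without Myzap and Ndrg1, which were below 20 CPM), with Dgkeos at 170 and 203 CPM. In DN3b gd+ 1 member was lower in cycling barcodes, where 0.881% of features were, and Dgkeos and Spats2 were the members that reached 20 CPM. Dgkeos was at 15.9 CPM in cycling and 39.7 CPM in non-cycling barcodes of that library, a log2 ratio of -1.32 [-1.49, -1.14], and after thinning before the split the ratio was -0.79. Its cycling level lay inside the B interval of this library, which reached 20.01 CPM, so the ratio is not read as an exact fold.

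In DN4 gd+ Dgkeos and Nrp1 were at least 2-fold higher in cycling barcodes, where 8.06% of features were. None of the members reached 20 CPM there. Dgkeos was at 17.2 CPM in cycling and 4.54 CPM in non-cycling barcodes, a log2 ratio of 1.92 [1.65, 2.19], 1.80 after thinning and 1.13 without the deepest 5% of barcodes. Its non-cycling level lay inside the B interval of this library, which reached 9.26 CPM, and its cycling level above it. Nrp1 was at 1.47 and 0.545 CPM, on 39 and 18 UMIs, with a ratio of 1.43 [0.59, 2.33], but both levels lay inside the B interval, so nothing is read from it. Spats2 was at 15.05 and 15.5 CPM. In the same library Ptcra was at 1.66 CPM in cycling and 0.757 CPM in non-cycling barcodes and the recombinase gene Rag1 at 1.92 and 0.333 CPM. Even 0 B UMIs gave an upper bound of 6.13 CPM in this library, so nothing is read from these levels. In DN3b gd+ Ptcra was at 6.19 and 23.7 CPM and Rag1 at 2.21 and 15.3 CPM. The bound for 0 B UMIs was 7.21 CPM there, above the cycling levels of both genes. Lat-KO DN3 gd- had 0 members past 2-fold, where 6.17% of features were, and Lat-KO DN3 gdint had 0, where 9.41% were. The latter had Myzap at 58.3 and 84.0 CPM and Ndrg1 at 55.7 and 74.9 CPM.

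The non-cycling barcodes of DN3b gd-, DN4 gd-, DN3b gd+ and DN4 gd+ held red-cell transcripts. The 5 erythroid markers summed to 388, 3407, 681 and 75.1 CPM there, against 3.97, 28.8, 2.55 and 0.302 CPM in cycling barcodes. Without barcodes shallower than the library's median depth divided by 3 the non-cycling sums were 4.88, 1.96, 0.297 and 76.95 CPM, and Dgkeos was then at a log2 ratio of -1.31 in DN3b gd+ and 1.98 in DN4 gd+.

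**Figure D4:**
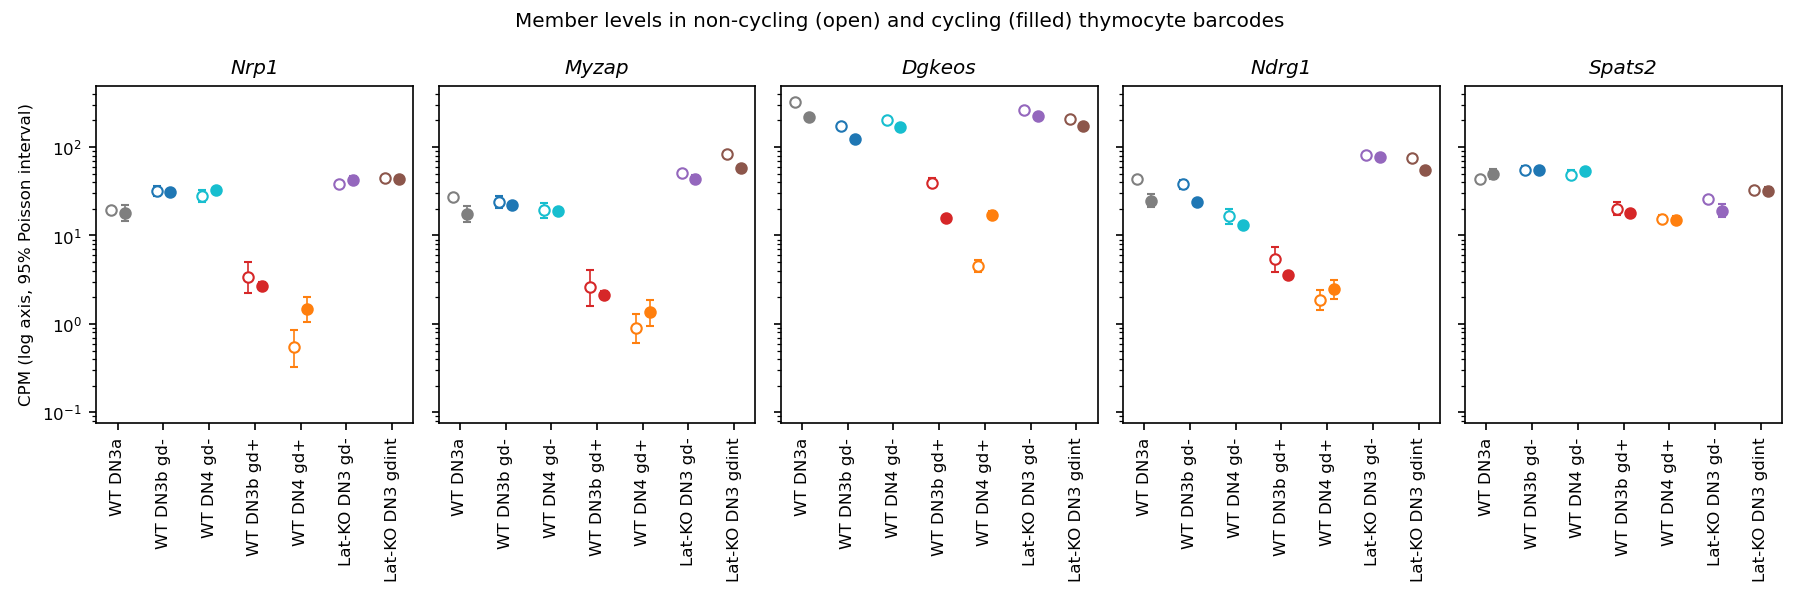
Level of the 5 genes in cycling and non-cycling barcodes of each library in CPM on a log axis, with exact 95% Poisson intervals. Dgkeos was lower in cycling barcodes of DN3b gd+ (15.9 and 39.7 CPM) and higher in those of DN4 gd+ (17.2 and 4.54 CPM). The lower level of each pair lay inside the B interval of its library.

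Barcodes were also divided within a library by genes that the choice of members did not use, as those with 2 or more UMIs against those with 0 of the gene among 4000, with levels taken from all their UMIs. Il2ra and Cd5 themselves differed in the comparison that chose the members, with log2 ratios of 1.67 and -3.57 in DN3b gd- over DN3b gd+. Ratios that follow them within DN3b gd+ are therefore no independent support. The division by Il2ra (CD25) was added for every library but DN3b gd- and DN4 gd- after values were seen. In DN3b gd+ it divided 263 barcodes from 9657. Dgkeos was at 88.5 CPM in the Il2ra-high and 14.8 CPM in the Il2ra-zero barcodes, a log2 ratio of 2.58 [2.40, 2.75]. Nrp1 was at 9.71 and 2.45 CPM (1.99), Myzap at 10.6 and 1.95 CPM (2.44), Ndrg1 at 8.24 and 3.43 CPM (1.26) and Spats2 at 27.1 and 17.6 CPM (0.62). By 2-fold or more 4 members were higher, where 1.44% of 5357 features with at least 20 CPM in either class were. Dgkeos and Spats2 were the members at that level, both only in the Il2ra-high barcodes. The other 3 stayed within the B intervals given above also in the Il2ra-high barcodes, whereas Dgkeos and Spats2 were above theirs. In the Il2ra-zero barcodes the level of Dgkeos lay inside its B interval, so nothing is read from the count. The Il2ra-high barcodes made up 2.42% of the barcodes and held 9.08% of the Dgkeos UMIs. At 4000 UMIs each, 28.5% of them and 4.79% of the Il2ra-zero barcodes held a Dgkeos UMI, and 41.1% and 62.3% were cycling.

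In the same classes Ptcra was at 82.1 and 5.01 CPM, Rag1 at 51.2 and 1.80 CPM, Dgke at 30.9 and 14.1 CPM and the gamma delta TCR constant gene Trdc at 838 and 1022 CPM. The inhibitory receptor gene Cd5 was at 88.5 and 133 CPM and Mki67 at 209 and 340 CPM, with median depths of 10609 and 16909 UMIs. Trdc was at 311 CPM in the DN3a library, so the Il2ra-high barcodes had a Trdc level above that of DN3a cells. The part of depth, of cycling and of a mixture of DN3a with gamma delta cells in this difference was not tested.

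In the other libraries the Il2ra ratios were smaller, from -0.42 to 0.50. In DN3b gd- (1518 and 12283 barcodes) they ran from -0.10 for Spats2 to 0.17 for Ndrg1, and in DN4 gd- (67 and 11277 barcodes) every interval included 0. In DN3a, Ndrg1 was at 46.7 and 33.01 CPM (0.50 [0.34, 0.67]) and Myzap at 27.1 and 22.9 CPM (0.24), with Nrp1, Dgkeos and Spats2 between -0.15 and 0.00. In Lat-KO DN3 gdint, Nrp1 was at 40.04 and 53.6 CPM (-0.42) and Spats2 at 30.4 and 39.3 CPM (-0.37), with Ndrg1 at 0.24. DN4 gd+ had 10 Il2ra-high barcodes and was not divided.

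Cd5, whose level rises with the strength of TCR signalling, divided 1324 from 6582 barcodes of DN3b gd+. Dgkeos was at 5.69 CPM in the Cd5-high and 22.4 CPM in the Cd5-zero barcodes, a log2 ratio of -1.98 [-2.25, -1.72]. Myzap was at 1.06 and 2.67 CPM (-1.33), Nrp1 at 1.53 and 3.21 CPM (-1.07), Ndrg1 at 2.87 and 3.72 CPM (-0.38 [-0.78, 0.01]) and Spats2 at 15.7 and 19.5 CPM (-0.31). By 2-fold or more 3 members were lower, where 0.0579% of 5178 features were, but Dgkeos was the only member at 20 CPM in either class, in the Cd5-zero barcodes. The levels of all members but Spats2 in the Cd5-high barcodes lay within the B intervals. Those of Nrp1, Myzap and Ndrg1 did so in the Cd5-zero barcodes too, so nothing is read from the count.

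Cd8b1, which is turned on as cells move towards the CD4+ CD8+ stage, divided 1121 from 8489 barcodes of DN4 gd-. Dgkeos was at 216 and 163 CPM (0.41 [0.36, 0.46]), Nrp1 at 39.1 and 31.4 CPM (0.32) and Myzap at 21.9 and 18.5 CPM (0.25). Ndrg1 was at -0.03 and Spats2 at -0.09, both with intervals that included 0. In DN3b gd- the 90 Cd8b1-high barcodes had Nrp1 at 55.0 CPM against 30.7 CPM in 16939 others (0.84) and Dgkeos at 170 against 126 CPM (0.43). Tfrc, which encodes the sorted marker CD71, gave ratios between -0.68 and 0.21 for the 5 genes in DN3a, DN3b gd- and DN3b gd+, and the intervals left out 0 for Dgkeos in DN3b gd- (-0.22) and in DN3b gd+ (-0.30 [-0.58, -0.03]) and for Ndrg1 in DN3b gd- (-0.17). These intervals cover counting error only and take no account of UMIs gathered in few barcodes, so they are no test.

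**Figure D5:**
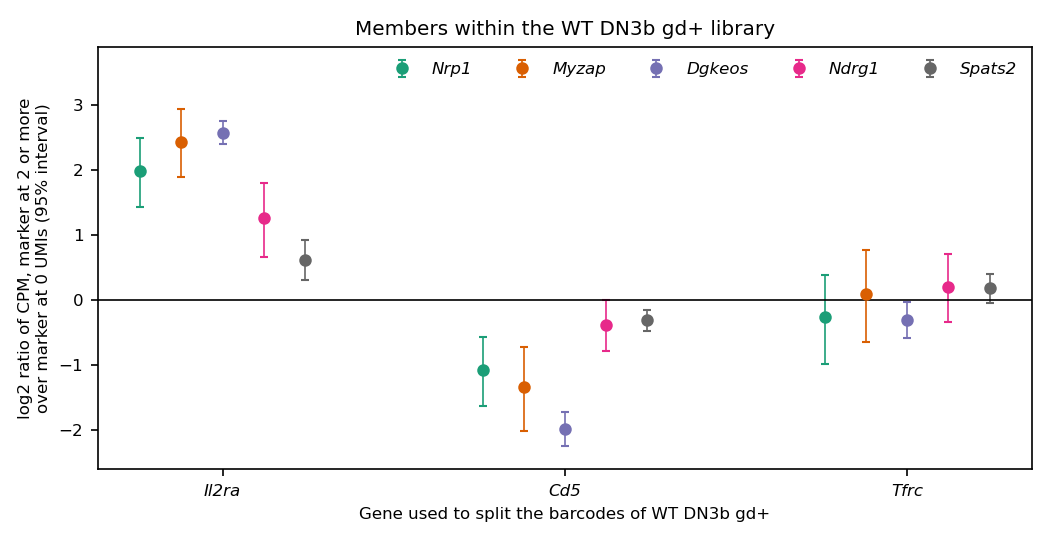
Log2 ratio of the level of the 5 genes between barcodes with 2 or more UMIs and with 0 UMIs of a dividing gene, within a library, with exact conditional binomial 95% intervals. In DN3b gd+ the ratios of all 5 genes lay above 0 by Il2ra, from 0.62 to 2.58, and below 0 by Cd5, from -1.98 to -0.31. The Cd5 interval of Ndrg1 included 0, and the levels of Nrp1, Myzap and Ndrg1 lay inside the B intervals in all classes of both genes.

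Genes related to the members were taken from lists chosen with earlier results of these data known, and are counted where they had at least 20 CPM in any of the 7 libraries, which need not be those compared. Under that filter, of 7029 features 10.6% were higher and 15.2% lower by 2-fold in DN3b gd- over DN3a, 11% and 13.8% in DN3b gd+ over DN3a, and 2.86% and 5.56% in DN3b gd- over DN3b gd+. The counts of all lists below stand beside these shares, and nothing particular to a list is read from them. Of 25 neuropilin partners and ligands 7 did. Of these, 1 was higher and 3 lower by 2-fold in DN3b gd- over DN3a, 1 and 1 in DN3b gd+ over DN3a, and 0 and 2 in DN3b gd- over DN3b gd+. The class 4 semaphorin gene Sema4a was at 35.03 CPM in DN3a, 7.14 CPM in DN3b gd- and 33.7 CPM in DN3b gd+, against the direction of Nrp1. Tgfbr2, a TGF-beta receptor gene, was at 4.64 CPM in DN3b gd- and 18.8 CPM in DN3b gd+. The receptors of the list differed widely in level. Tgfbr1 reached 72.8 CPM, Tgfbr2 58.4 CPM and the plexin gene Plxnd1 11.5 CPM, whereas the class A plexin gene Plxna1 reached 1.56 CPM, the VEGF receptor gene Kdr 0.258 CPM and Nrp2 3.21 CPM.

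The list of adherens junction and desmosome genes, related to Myzap, held 16 genes including its neighbour Polr2m, which is no junction gene, and 6 of the 16, Polr2m among them, reached 20 CPM. The 2 that were lower in DN3b gd- over DN3a, and again in DN3b gd+ over DN3a, were Cdh1 (E-cadherin), at 21.6 CPM in DN3a, 1.08 CPM in DN3b gd- and 0.434 CPM in DN3b gd+, and Afdn (afadin), at 9.73, 3.33 and 4.50 CPM. None was higher in either. Between DN3b gd- and DN3b gd+ 1 was higher (Cdh1) and 0 lower. Both levels of Cdh1 were below 1.43 CPM, the highest that it reached in B barcodes of any library. That level can come from another library, so it gives no background for the 2 compared. Both levels were also far below 20 CPM, so nothing is read from this count. Desmosomal Dsp was at no more than 0.616 CPM in any library.

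Of 10 diacylglycerol kinases, which end signalling by diacylglycerol, 5 reached 20 CPM. Dgke, opposite Dgkeos, was at 72.4 CPM in DN3a, 44.5 CPM in DN3b gd-, 43.5 CPM in DN4 gd-, 14.7 CPM in DN3b gd+, 12.6 CPM in DN4 gd+, 80.1 CPM in Lat-KO DN3 gd- and 88.3 CPM in Lat-KO DN3 gdint. It and Dgkg were lower and Dgkd higher by 2-fold in DN3b gd+ over DN3a, and Dgke (1.60) and Dgkg (1.24) were the 2 that were higher in DN3b gd- over DN3b gd+. Dgka was at 13.2 CPM in DN3b gd- and 26.3 CPM in DN3b gd+, and at 62.3 CPM in DN4 gd+. Of 13 genes of diacylglycerol signalling 10 reached 20 CPM, and 0 were higher and 2 lower in DN3b gd- over DN3b gd+. These were the Ras activator gene Rasgrp1, at 60.1 and 194 CPM, and Prkcq (protein kinase C theta), at 20.3 and 41.3 CPM. In DN3b gd- over DN3a 1 was higher and 2 lower, and in DN3b gd+ over DN3a 2 were higher and 1 lower.

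Of 7 genes of the NDRG family and its kinases 4 reached 20 CPM, and 0 passed 2-fold in DN3b gd- over DN3a or over DN3b gd+. Sgk3 was lower in DN3b gd+ over DN3a, at 23.4 and 47.9 CPM. Ndrg3 was at 11.9 to 27.8 CPM over the 7 libraries. Of 20 hypoxia genes 10 reached 20 CPM. Pgk1 and Ldha, of glycolysis, were higher in both DN3b libraries, with Ldha at 231 CPM in DN3a, 855 CPM in DN3b gd- and 820 CPM in DN3b gd+. Bnip3l, Kdm3a and Ddit4 were lower in DN3b gd- over DN3a, and in DN3b gd+ over DN3a 3 were higher and 4 lower. The list therefore held genes of both directions, and Mxi1 was the 1 that was higher in DN3b gd- over DN3b gd+. Spats2l, the relative of Spats2, did not reach 20 CPM and was at 4.99 CPM in DN3a, 0.151 CPM in DN3b gd- and 3.34 CPM in DN3b gd+.

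Genes of the pre-TCR and of recombination, and of Notch signalling, are the known programme of DN3a cells. Of 12 and 13 such genes 10 and 10 reached 20 CPM, and 6 and 5 were higher and 0 lower by 2-fold in DN3b gd- over DN3b gd+, beside 2.86% and 5.56% of all features. Ptcra is in both lists. In DN3b gd+ each gene counted as higher was below the highest level that it reached in B barcodes of any library. For Ptcra, Rag1 and Notch3 that level was 79.8, 52.4 and 16.0 CPM. Such a level can come from another library, and Ptcra and Rag1 reached 898 and 557 CPM in thymocytes of Lat-KO DN3 gdint. It therefore does not show that the DN3b gd+ levels are background. The lists were chosen with earlier results known, so nothing is read from these counts, or from the medians of both lists given below. Ptcra was at 416 CPM in DN3a, 63.1 CPM in DN3b gd- and 7.41 CPM in DN3b gd+, and Rag1 at 461, 36.2 and 3.33 CPM. The log2 ratio of DN3b gd- over DN3a was -2.72 for Ptcra and -3.67 for Rag1. It is not set against that of the members, which were picked for high levels in DN3b gd-. Notch3 was at 152, 15.1 and 2.30 CPM. In DN3b gd- over DN3a, 2 of the pre-TCR and recombination genes were higher and 3 lower, and of the Notch genes 0 and 6, beside 10.6% and 15.2% of all features. The median log2 ratio of DN3b gd- over DN3b gd+ was 2.17 for the pre-TCR and recombination genes and 1.13 for the Notch genes. It was -0.34 for the neuropilin list, -0.12 for the junction list, -0.36 for the diacylglycerol kinases, -0.76 for diacylglycerol signalling, 0.14 for the NDRG list and -0.01 for the hypoxia list, beside 0.03 over the 7029 features.

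The genes whose levels were most like each member's were found by the Pearson correlation of log2(CPM + 1) over the 7 libraries, among 6925 genes. The points are few and share genotype, stage and depth, so each value is a description. For Nrp1 these were Slc43a1 (0.982), Zfp598 (0.977), Sapcd1 (0.970), Myzap (0.965) and Mtf2 (0.964). For Myzap they were Slc23a4 (0.999), Tenm1 (0.998), Xrcc6 (0.993), Zfp704 (0.992) and Ccdc18 (0.991). For Dgkeos they were Gm525 (0.992), Larp1 (0.971), Slc25a37 (0.967), Dgke (0.964) and Fbln2 (0.963). For Ndrg1 they were Rnf157 (0.994), Agfg2 (0.992), Ralgps2 (0.991), Arpp21 (0.990) and Acot5 (0.990). For Spats2, which had the least like partners, they were Smim13 (0.937), Taf1d (0.913), Rangrf (0.871), Mrpl36 (0.864) and Larp1 (0.862). Tenm1 is an example, at 23.8 CPM in DN3a, 18.2 CPM in DN3b gd-, 14.0 CPM in DN4 gd-, 1.59 CPM in DN3b gd+, 0.372 CPM in DN4 gd+, 52.8 CPM in Lat-KO DN3 gd- and 68.9 CPM in Lat-KO DN3 gdint, close to the levels of Myzap. Among the members themselves the correlation ran from 0.515 (Ndrg1 with Spats2) to 0.973 (Myzap with Ndrg1), and that of Myzap with Polr2m was 0.499.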

How the data were processed

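Thymocytes of 7 sorted populations, 1 library each, were profiled by 10x 3′ v3 single-cell RNA sequencing. The authors deposited filtered UMI counts per gene and barcode, not normalized, aligned to mm10 with an added GFP feature. The submitters' processing notes name Cell Ranger 5.0.1, R 3.6.3 and Seurat 3.1.5, whereas the file header names Cell Ranger 4.0.0. The 5 genes and all lists were chosen with earlier results of these data known.

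Barcodes under 200 detected genes or above 15% of mitochondrial UMIs were left out. Thymocyte barcodes had at most 1 UMI of the 3 B genes. B barcodes had at least 10 UMIs of these genes and at least 2 times as many of them as of T-cell genes. Doublets were not called; the 5% deepest barcodes were left out as an alternative. UMIs were summed per library and divided by the library total of thymocyte barcodes (CPM), with exact Poisson, Clopper-Pearson and conditional binomial 95% intervals, which cover counting error only. A feature was counted as past the fold at 2-fold, among features with at least 20 CPM in either library, or in any library for the gene lists. With 1 library per group no p-value was computed. The text names the 5 members, overlapping or nearest genes, list genes with at least 20 CPM in a library, and the 5 genes most correlated with each member without mitochondrial or ribosomal-protein genes. List genes under 20 CPM that are named (Kdr, Plxna1, Plxnd1, Nrp2, Dsp, Spats2l, and the markers Cdh5, Emcn, Tek, Siglech, Irf8, Dcn, Col3a1, Col1a2, Krt5, Csf1r, Itgam, Tyrobp, Ncr1, Klrb1c, Klrd1 and Eomes) were chosen after their values were seen. The interval method was tested on simulated data. Intervals were computed with scipy 1.17.1 in Python 3.11.15, and TMM factors with edgeR 4.0.16, which was used for nothing else. Alternatives were another scaling, no quality filter, a stricter T-cell rule, removal of shallow or deep barcodes, subtraction of B levels, thinning, each cycling state alone, other folds and other filters on low values.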

Additional observations from a re-analysis of the deposited data

Results flagged for a closer look

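The level of Dgkeos moved in opposite directions with the cycling state in different libraries. The log2 ratio of cycling over non-cycling barcodes was -0.56 in WT DN3a and -1.32 in WT DN3b gd+, but 1.92 in WT DN4 gd+. It was -0.46 in WT DN3b gd-, -0.26 in WT DN4 gd-, -0.21 in Lat-KO DN3 gd- and -0.28 in Lat-KO DN3 gdint. WT DN4 gd+ was thus the only library with a ratio above 0. The difference between the libraries was not tested, since each group had 1 library. In WT DN4 gd+ the ratio was 1.80 when the state was set after thinning to 4000 UMIs and 1.13 without the deepest 5% of barcodes, and in WT DN3b gd+ it was -0.79 and -1.46. The interval of Dgkeos in WT DN4 gd+ overlapped that of the B barcodes of this library. Its non-cycling level there (4.54 CPM) and its cycling level in WT DN3b gd+ (15.9 CPM) lay inside the B intervals of these libraries. Both ratios are therefore not read as exact folds, and the part of free RNA in these values was not tested.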

How the results depend on the processing

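No paired analysis was possible because each group had 1 library and the comparisons come from no test. The members past 2-fold in DN3b gd- over DN3a were 1, and were 2 with B levels subtracted, 0 in non-cycling and 0 in cycling barcodes, 3 at 1.5-fold and 0 at 4-fold. In DN4 gd- over DN3b gd- they were 0, and 1 with B levels subtracted, in non-cycling barcodes and at 1.5-fold. In DN4 gd+ over DN3b gd+ they were 2, and 4 with TMM scaling, thinning, non-cycling barcodes and 1.5-fold, 3 without the deepest barcodes, and 0 in cycling barcodes and at 4-fold. In Lat-KO DN3 gd- over DN3a they were 0, and 1 with TMM scaling and with B levels subtracted, and 4 in cycling barcodes and at 1.5-fold. In cycling over non-cycling WT DN3b gd+ they were 1, and 0 when the split was made after thinning. Of 504 alternative values of single members 487 kept their sign and 462 also their side of 2-fold. None of the 17 that changed sign had been past 2-fold. The largest shift was 2.21 in log2, for Dgkeos in DN4 gd+ over DN3b gd+, at -3.13 in non-cycling and 0.11 in cycling barcodes. TMM scaling changed log2 ratios by -0.74 (Lat-KO DN3 gdint over DN3b gd+) to 0.36. Subtraction gave no value where a B level was at least the thymocyte level, so 5 counts could not be given. Without a CPM filter, at 4 UMIs, the share of all features past 2-fold rose from 26.1% to 39.7% in DN3b gd- over DN3a, from 24.9% to 39.8% in DN3b gd+ over DN3a, from 6.93% to 22.1% in DN3b gd- over DN3b gd+, from 1.18% to 17.1% in DN4 gd- over DN3b gd-, from 17.8% to 32.3% in DN4 gd+ over DN3b gd+, from 2.84% to 14.5% in Lat-KO DN3 gd- over DN3a (4.30% at 5 CPM) and from 8.59% to 14.6% in Lat-KO DN3 gdint over Lat-KO DN3 gd-.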
